A study of Mus musculus with 8 samples.

Results

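The 10 genes described here encode the cytokines interleukin-1 and interleukin-18, the natural blockers of both, and the inflammasome parts that release them. They are Il1a, Il1b, Il1rn, Il18, Il18bp, Casp1, Casp4, Nlrp3, Pycard and Gsdmd, matched by symbol to 10 of the 41388 gene identifiers counted in every library. All 10 had enough counts to be tested, among 12002 genes in all. RNA was sequenced from microglia, the resident macrophages of the brain and spinal cord, of adult C57BL/6 mice. Microglia were isolated with antibodies to CD11b, CD45 and CD11c. The groups were CD11c+ microglia from mice with neuromyelitis optica (NMO; n = 2), CD11c- microglia from NMO mice (n = 3), and microglia of unmanipulated control mice (n = 3). NMO is an inflammatory disorder that strikes mainly the optic nerves and spinal cord, and the labels do not say how it was produced in these mice or at what stage cells were taken. One label of the control libraries gives the cells as CD11c negative while their titles give total microglia, so whether CD11c+ cells had been removed is not known.

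The interleukin-1 family carries early alarm signals of inflammation. Interleukin-1α and interleukin-1β, encoded by Il1a and Il1b, act on the same receptor, and the product of Il1rn, the interleukin-1 receptor antagonist, occupies that receptor without signalling. Interleukin-18 is held in check in a different way, by a secreted decoy, the interleukin-18 binding protein made from Il18bp. Interleukin-1β and interleukin-18 are made as inactive precursors. The sensor NLRP3 and the adaptor ASC (Pycard) assemble into the inflammasome, which activates caspase-1 (Casp1). Caspase-1 then cuts the precursors and gasdermin D (Gsdmd), whose freed end forms pores in the membrane. In mice, Casp4 encodes caspase-11, which senses bacterial lipopolysaccharide inside the cell and also cuts gasdermin D. Messenger RNA levels show the supply of these parts and not whether an inflammasome has assembled.

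Stretches of promoter sequence are shown for the members whose promoter held a match to a motif searched, since these genes are known as targets of inflammatory transcription factors. RefSeq promoter windows (GRCm38.p6, 250 bases before to 50 after a transcription start) were found for 9 of the 10 members, Gsdmd being the other, and several starts gave 13 windows in all. Both strands were searched. The AP-1 motif TGANTCA lay in a window of 2 of the 9 members, against 8.97% of all 27025 genes. The consensus site of NF-kB lay in 2 of the 9, against 5.14%, and the core of the interferon-stimulated response element in 0, against 3.99%. By window these were 2, 3 and 0 of the 13, against 7.81%, 4.51% and 3.44% of all 32851 windows. The same Casp4 site counts in 2 of these windows, since Casp4 has 2 starts close together. Capitals mark the matched bases, which for Casp4 are 2 overlapping matches, and the 5′ to 3′ sequence is that of the gene's own strand.
Il1a, chr2:129309973-129310024, minus strand, AP-1 match from base -12 to -6 before the start: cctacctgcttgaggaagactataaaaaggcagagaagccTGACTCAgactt
Il1rn, chr2:24336679-24336765, plus strand, AP-1 match from base -141 to -135: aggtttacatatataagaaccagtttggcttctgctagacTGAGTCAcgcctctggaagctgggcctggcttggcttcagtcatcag
Casp4, chr9:5308716-5308806, plus strand, NF-kB match from base -93 to -83: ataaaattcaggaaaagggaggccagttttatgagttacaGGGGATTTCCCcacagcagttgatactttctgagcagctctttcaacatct
Nlrp3, chr11:59541343-59541432, plus strand, NF-kB match from base -186 to -177: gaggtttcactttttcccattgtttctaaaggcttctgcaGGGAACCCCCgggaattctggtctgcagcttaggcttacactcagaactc
A match of letters is a description of the promoter and not evidence that a factor was bound there.

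Libraries held 4943207 and 5914412 counts for NMO CD11c+, 6437516 to 6819662 for NMO CD11c- and 7500815 to 9246061 for control. Levels are given as CPM, counts relative to the scaled library total. Itgax, the gene for CD11c, was at 188 and 181 CPM in the CD11c+ libraries, against 35.5 to 41.3 CPM in NMO CD11c- and 30.6 to 32.1 CPM in control. Defining genes of microglia were abundant in every library: the 8 listed summed to 28681 and 29746 CPM in CD11c+, 29461 to 36314 CPM in NMO CD11c- and 36374 to 39876 CPM in control. Of these 8, 3 were lower in CD11c+ than in control at an adjusted p under 0.05 (edgeR quasi-likelihood test), where 3.36% of all tested genes were. They were P2ry12, Cx3cr1 and Siglech, with log2 fold changes of -1.01, -0.71 and -0.69. In the other comparisons 0 of the 8 passed. CD11c+ replicate 1 stands apart from the other 7 libraries in base composition. In it, the level of a gene relative to the mean of all libraries correlated with its GC content across genes (Spearman 0.592), against -0.299 to -0.0378 in the others. The difference of CD11c+ from control is therefore given for each member also without this library. Whether libraries stem from separate mice is not stated, so p-values measure the spread between these libraries only. No label gives a batch, so handling and disease cannot be told apart in comparisons with control. In such bulk samples a lower level can come from fewer cells of a type or less RNA per cell, which cannot be told apart.

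Against control, Il1b passed the test in both NMO groups, Il1rn only in CD11c+, and the adaptor and caspase genes Pycard and Casp4 only in CD11c-. All were upward, and for each of these genes every NMO library lay above every control library. In the other NMO group the edgeR quasi-likelihood test gave adjusted p just over 0.05, at 0.0633 for Il1rn and 0.0658 for both Casp4 and Pycard. Neutrophil markers were also higher in the CD11c- libraries, summing to 2231 to 11629 CPM against 925 to 1914 CPM in control, and far lower in CD11c+, at 17.6 and 22.2 CPM. Between the CD11c+ and CD11c- microglia of NMO mice, 0 of the 10 members passed the test in either direction. A gene was called when its Benjamini-Hochberg adjusted p from edgeR's quasi-likelihood test, over all 12002 genes, was under 0.05.

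In NMO CD11c+ against control, 2 members (Il1b and Il1rn) were called higher and 0 lower, where 6.85% and 3.36% of all tested genes were. All CD11c+ libraries lay above all controls for 5 members (22.2% of all tested genes) and below them for 1 (21.5%). The median log2 fold change of the 10 was 0.32, against 0.01 over all tested genes. With offsets for GC content and transcript length in each library, 4 members were called higher, Casp4 and Pycard being added. With only these groups in the fit 1 was. With a library left out the number was 4 without CD11c+ replicate 1, 1 without CD11c- replicate 1 or control replicate 1 or 2, and 0 without control replicate 3.

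In NMO CD11c- against control, 3 members (Il1b, Casp4 and Pycard) were called higher and 0 lower, against 3.0% and 0.717% of all tested genes. Here 6 members lay above every control library (17.6% of all tested genes) and 1 lay below (16.1%). The median log2 fold change was 0.29 for the members and -0.00397 for all tested genes. The 2 comparisons with control share their control libraries. The 3 calls became 0 when CD11c- replicate 1, CD11c- replicate 2 or any 1 control library was left out, and 1 (Il1rn alone) without CD11c- replicate 3. With only these groups in the fit, or with GC and length offsets, 4 members were called higher, Il1rn being added. DESeq2 and the edgeR exact test called the same 4.

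In NMO CD11c+ against NMO CD11c-, where 0 members were called, 0.100% of all tested genes were called higher and 0.183% lower. DESeq2 and the edgeR exact test also called 0 members, and 0 members reached an unadjusted p under 0.05, where 7.90% of tested genes did so upward and 7.54% downward. Members whose CD11c+ libraries all lay above the CD11c- libraries numbered 0 (13.8% of all tested genes), and 1, Pycard, had them all below (14.2%).

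**Figure D1:**
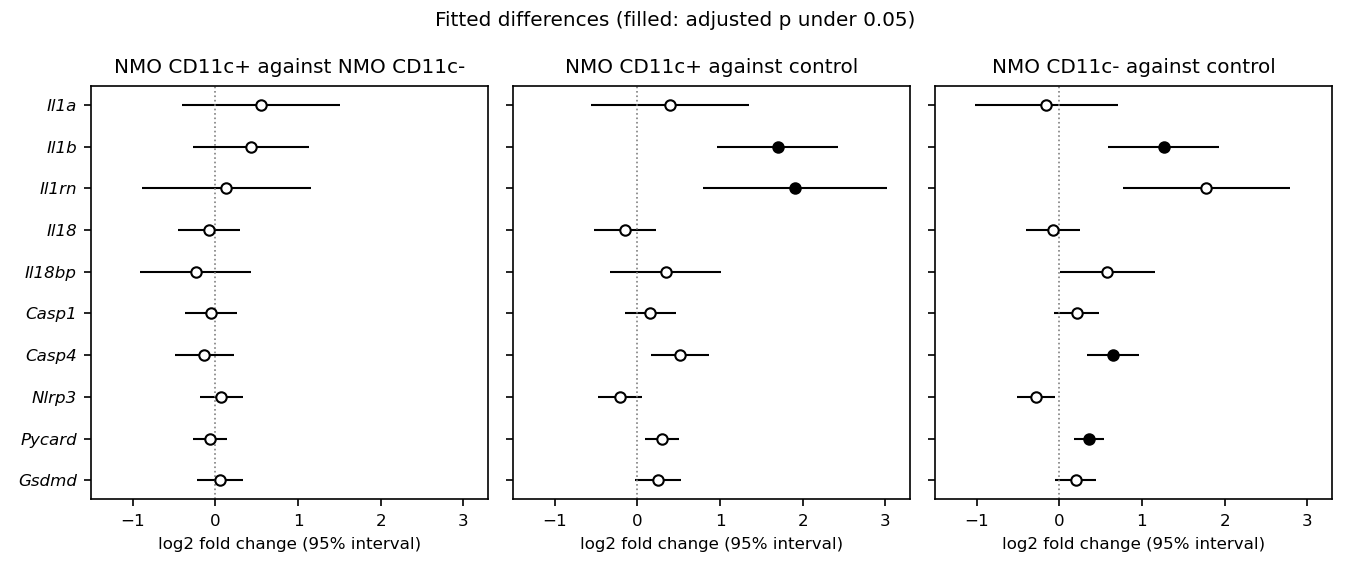
Log2 fold change of each member in the 3 comparisons, with its 95% interval; filled points passed an adjusted p of 0.05. Il1b is filled in both comparisons with control, Il1rn only in CD11c+ against control, Casp4 and Pycard only in CD11c- against control, and every interval of the left panel holds 0.

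Il1b (ENSMUSG00000027398, chr2:129364570-129371139, minus strand, GRCm38) had the lowest adjusted p of the members in NMO CD11c+ against control. It was at 9.19 and 21.1 CPM in NMO CD11c+ and at 9.28, 12.9 and 11.8 CPM in NMO CD11c-, against 4.77, 5.46 and 3.79 CPM in control. Every NMO library was above every control library, while the CD11c+ pair enclosed the CD11c- values. The log2 fold change of CD11c+ against control was 1.70 (SE 0.328, 95% interval 0.97 to 2.43, adjusted p = 0.0115). Without CD11c+ replicate 1 it was 2.16, and without CD11c+ replicate 2 it was 0.96. It stayed called in 7 of the 8 fits that left a library out and had an adjusted p of 0.0569 without control replicate 3. NMO CD11c- differed from control by 1.27 (SE 0.301, 95% interval 0.60 to 1.94, adjusted p = 0.0490), which lost its call whenever a CD11c- or a control library was left out (adjusted p up to 0.178) and kept its sign throughout. CD11c+ against CD11c- gave 0.43 (SE 0.314, 95% interval -0.27 to 1.13, adjusted p = 0.495), with 0.90 without CD11c+ replicate 1 and -0.30 without replicate 2. Il1bos, which overlaps Il1b exons on the other strand, was at 1.18 to 3.17 CPM over the 8 libraries.

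Il1rn (ENSMUSG00000026981, chr2:24336853-24351494, plus strand), the antagonist of the same receptor and the gene of the second promoter stretch above, was the least abundant member per kilobase. Its levels were 3.47 and 9.16 CPM in NMO CD11c+, from 17 and 52 counts. NMO CD11c- had 7.48, 6.62 and 3.38 CPM, from 50, 44 and 23 counts, against 1.35, 1.29 and 2.48 CPM in control, from 11, 12 and 19 counts. Both NMO groups lay above control with no overlap, and the lowest NMO library, CD11c- replicate 3, was 3.38 CPM where the highest control was 2.48 CPM. In CD11c+ against control Il1rn rose by 1.91 on the log2 scale (SE 0.50, 95% interval 0.80 to 3.03, adjusted p = 0.0395). It was 2.43 without CD11c+ replicate 1 (adjusted p = 0.0146). The call was lost without CD11c+ replicate 2 (1.03, adjusted p = 0.204), without CD11c- replicate 1 (adjusted p = 0.0569) and without control replicate 1, 2 or 3 (adjusted p = 0.123, 0.126 and 0.0672). CD11c- against control gave 1.78 (SE 0.454, 95% interval 0.77 to 2.79), and its adjusted p of 0.0633 missed the threshold, although DESeq2 (0.00801) and the edgeR exact test (0.00697) called it. Between the NMO subsets the log2 fold change was 0.13 (SE 0.460, adjusted p = 0.901), with 0.65 without CD11c+ replicate 1 and -0.74 without replicate 2.

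Il1a (ENSMUSG00000027399, chr2:129299610-129309972, minus strand), which lies near Il1b, was many times more abundant than Il1b per kilobase of exon. It was at 77.2 and 311 CPM in NMO CD11c+, against 107, 140 and 151 CPM in NMO CD11c- and 187, 129 and 129 CPM in control. One CD11c+ library was the lowest of all 8 and the other the highest, so the group mean of 194 ± 166 CPM (SD, n = 2) describes neither. CD11c+ differed from CD11c- by 0.55 on the log2 scale (SE 0.430, 95% interval -0.41 to 1.51, adjusted p = 0.524) and from control by 0.39 (SE 0.430, 95% interval -0.56 to 1.35, adjusted p = 0.576). CD11c- differed from control by -0.16 (SE 0.388, adjusted p = 0.871). The choice of CD11c+ library set the direction: against control the value was 1.07 without replicate 1 (adjusted p = 0.0172) and -0.94 without replicate 2 (adjusted p = 0.0185). Against CD11c- the values were 1.23 (adjusted p = 0.0800) and -0.79 (adjusted p = 0.0490) in the same fits.

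**Figure D2:**
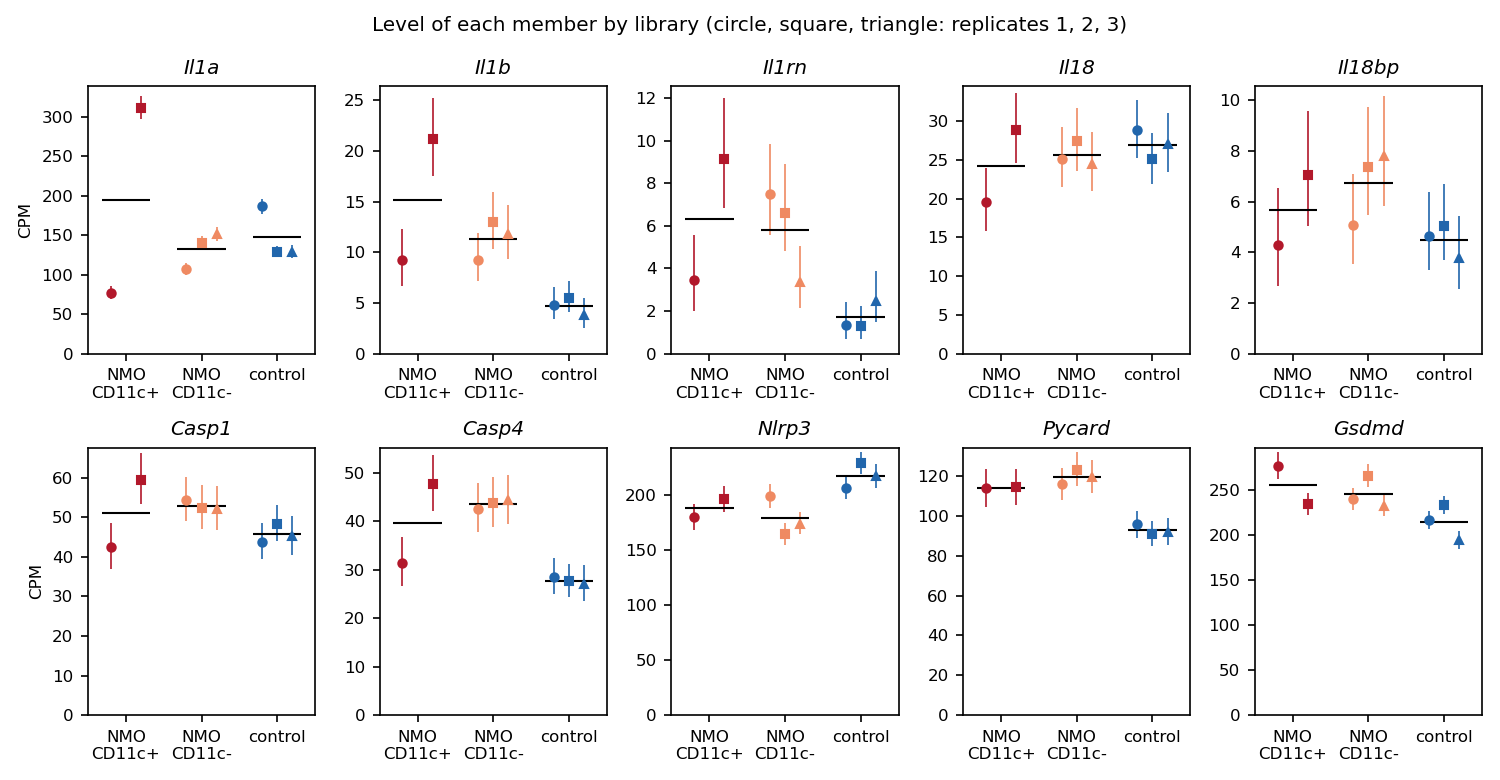
CPM of each member in every library, by group (NMO CD11c+, NMO CD11c-, control), each panel on its own axis from 0; vertical lines are 95% counting intervals and horizontal lines group means. Il1b and Il1rn are higher in every NMO library than in control, Casp4 and Pycard likewise, and the CD11c+ points of Il1a lie at 77.2 and 311 CPM.

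Il18 (ENSMUSG00000039217, chr9:50554827-50581840, plus strand) differed little between groups before offsets for GC content and length. It averaged 24.3 ± 6.56 CPM in NMO CD11c+ (SD, n = 2), 25.7 ± 1.51 CPM in NMO CD11c- and 27.0 ± 1.90 CPM in control (SD, n = 3 each). Its log2 fold changes were -0.15 for CD11c+ against control (95% interval -0.52 to 0.23), -0.07 for CD11c- against control (-0.40 to 0.26) and -0.08 for CD11c+ against CD11c- (-0.46 to 0.30). These intervals hold 0 and, in the fit of all 8 libraries, reach at most 0.52 in either direction on the log2 scale. Il18 was called lower in CD11c+ than in control without CD11c+ replicate 2 (-0.46, adjusted p = 0.0482), and without replicate 1 the value was 0.0969. Against CD11c- it was 0.17 without replicate 1 and 0.12 with GC and length offsets. With these offsets CD11c- against control gave -0.28 (SE 0.104, adjusted p = 0.120), which was not called. The CD11c- libraries, at 22.9 to 24.0 CPM, then lay below every control library, at 26.5 to 30.6 CPM.

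The decoy Il18bp (ENSMUSG00000070427, chr7:102014885-102018690, minus strand) was at 4.29 and 7.05 CPM in NMO CD11c+, 5.09, 7.38 and 7.79 CPM in NMO CD11c-, and 4.65, 5.03 and 3.79 CPM in control. All CD11c- libraries were above control, the nearest by 5.09 to 5.03 CPM, and CD11c+ overlapped both groups. On the log2 scale CD11c- against control gave 0.58 (SE 0.259, adjusted p = 0.263), CD11c+ against control 0.34 (SE 0.302, adjusted p = 0.487) and CD11c+ against CD11c- -0.24 (SE 0.299, adjusted p = 0.699). Without CD11c+ replicate 1 the CD11c+ differences were 0.64 from control and 0.0614 from CD11c-, and without replicate 2 they were -0.0747 and -0.65. Il18bp shares exonic sequence with Numa1 on the other strand, which was at 425 to 646 CPM, and the strand setting of the counting is not given in the sources used here, so reads of Numa1 may be among its counts.

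Blocker and cytokine were also compared within each library, a ratio that does not depend on how libraries are scaled. The log2 ratio of Il1rn to Il1b counts was -1.38 and -1.20 in NMO CD11c+, -0.31, -0.96 and -1.78 in NMO CD11c-, and -1.78, -2.04 and -0.60 in control. Antagonist counts were thus below Il1b counts in all 8 libraries, all groups overlapped, and the CD11c+ pair lay inside the range of both others. The difference was 0.18 for CD11c+ against control (two-sided exact permutation p = 0.8), 0.46 for CD11c- against control (p = 0.5) and -0.27 for CD11c+ against CD11c- (p = 0.8).

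The log2 ratio of Il18bp to Il18 counts was -2.17 and -2.02 in NMO CD11c+, -2.29, -1.88 and -1.65 in NMO CD11c-, and -2.62, -2.30 and -2.81 in control. Every NMO library was above every control library, the nearest values being -2.29 and -2.30. With GC and length offsets, an alternative chosen after seeing the data, CD11c+ replicate 1 was at -2.42, below control replicate 2 at -2.36, so CD11c+ and control then overlapped. The CD11c- libraries stayed above control, at -2.22 to -1.56 against -2.82 to -2.36. The differences from control were 0.48 for CD11c+ (SE 0.165, exact permutation p = 0.2) and 0.64 for CD11c- (SE 0.239, exact permutation p = 0.1), and these p-values are the smallest that such group sizes allow, so neither can pass 0.05. Between CD11c+ and CD11c- the difference was -0.16 (exact permutation p = 0.6). Of the 6 ratio comparisons 0 could be called, and Benjamini-Hochberg adjustment would only raise these values.

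**Figure D3:**
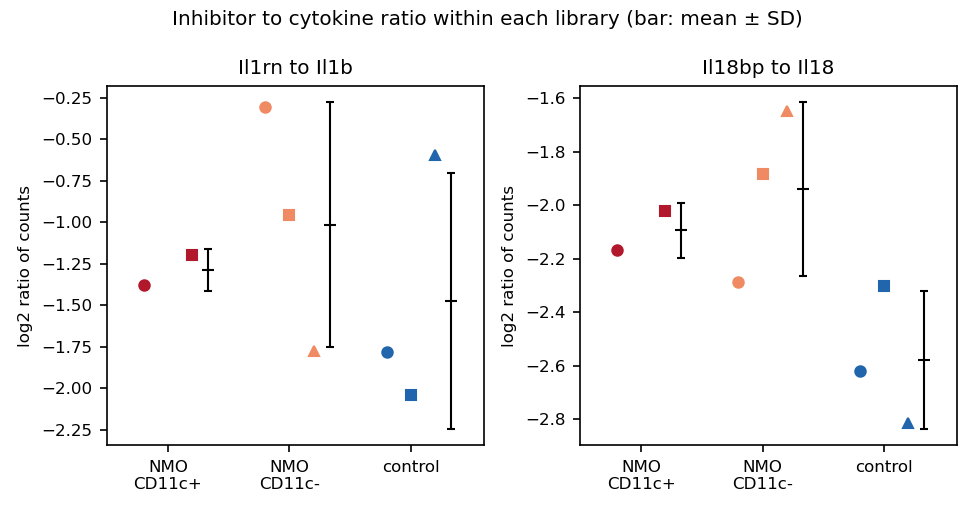
Log2 ratio of blocker to cytokine counts within each library, by group, with group mean ± SD beside the points. The Il1rn to Il1b ratio overlaps between groups, whereas all NMO libraries lie above all controls for Il18bp to Il18, the closest pair being -2.29 and -2.30; with GC and length offsets CD11c+ overlaps control.

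Casp4 and Casp1 lie side by side on chromosome 9. Casp4 (ENSMUSG00000033538, chr9:5308828-5336783, plus strand), with the NF-kB match shown above, was at 31.5 and 47.7 CPM in NMO CD11c+ and 42.6, 43.8 and 44.4 CPM in NMO CD11c-, against 28.6, 27.6 and 27.1 CPM in control. All NMO libraries were above control, and the CD11c+ pair enclosed the CD11c- values. CD11c- rose over control by 0.65 on the log2 scale (SE 0.141, 95% interval 0.34 to 0.96, adjusted p = 0.0341). That value ranged from 0.63 to 0.67 over the 8 fits without a library, but its adjusted p was above 0.05, up to 0.134, in the 6 that left out a CD11c- or control library. CD11c+ against control gave 0.52 (SE 0.159, 95% interval 0.16 to 0.87, adjusted p = 0.0658), 0.78 without CD11c+ replicate 1 (adjusted p = 0.00250) and 0.18 without replicate 2 (adjusted p = 0.291). With offsets for GC content and transcript length in each library the CD11c+ values became 48.1 and 45.0 CPM, against 25.4 to 28.2 CPM in control, and the difference 0.80 (adjusted p = 0.000647). Between the NMO subsets Casp4 differed by -0.13 (SE 0.159, adjusted p = 0.682), with 0.13 without CD11c+ replicate 1 (adjusted p = 0.709) and -0.47 without replicate 2 (adjusted p = 0.0196). With the offsets this difference was 0.20 (adjusted p = 0.379), and both CD11c+ libraries then lay above the CD11c- libraries, at 39.5 to 41.7 CPM.

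Casp1 (ENSMUSG00000025888, chr9:5298517-5307265, plus strand) averaged 51.0 ± 12.1 CPM in NMO CD11c+ (SD, n = 2), 53.0 ± 1.27 CPM in NMO CD11c- and 45.9 ± 2.32 CPM in control (SD, n = 3 each). The CD11c- libraries, at 52.2 to 54.5 CPM, were above the control libraries at 43.9 to 48.4 CPM, and the CD11c+ pair, at 42.5 and 59.5 CPM, enclosed all 6. The difference from control was 0.21 for CD11c- (SE 0.123, adjusted p = 0.405) and 0.16 for CD11c+ (SE 0.140, adjusted p = 0.489). Between the NMO subsets it was -0.05 (SE 0.140, 95% interval -0.36 to 0.26). The offsets changed this picture: CD11c+ became 59.3 and 54.5 CPM, above CD11c- at 45.0 to 51.6 CPM and control at 44.8 to 48.3 CPM. The differences were then 0.30 from control (adjusted p = 0.0760) and 0.22 from CD11c- (adjusted p = 0.323), neither called. Without CD11c+ replicate 1 they were 0.37 (adjusted p = 0.0604) and 0.17, and without replicate 2 they were -0.11 and -0.32.

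Pycard (ENSMUSG00000030793, chr7:127989708-127993867, minus strand), the adaptor that joins sensor and caspase, was at 114 CPM in both NMO CD11c+ libraries and at 116, 123 and 119 CPM in NMO CD11c-, against 95.8, 91.2 and 91.9 CPM in control. The CD11c+ libraries were just below the lowest CD11c- library and above every control. CD11c- rose over control by 0.36 on the log2 scale (SE 0.0817, 95% interval 0.18 to 0.54, adjusted p = 0.0390). The value stayed between 0.34 and 0.39 over the 8 fits without a library, with an adjusted p above 0.05, up to 0.171, in the 6 that left out a CD11c- or control library, and of 0.0882 with no filter on low counts. CD11c+ against control gave 0.30 (SE 0.0915, 95% interval 0.0927 to 0.50, adjusted p = 0.0658). It stayed at 0.30 without CD11c+ replicate 1 (adjusted p = 0.0815) and was 0.29 without replicate 2 (adjusted p = 0.0348) and 0.39 with the offsets (adjusted p = 0.0143). CD11c+ against CD11c- gave -0.07 (SE 0.0921, 95% interval -0.27 to 0.14, adjusted p = 0.733), and 0.0798 with the offsets. The exons of Pycard overlap Gm45205 on the other strand, which is not analysed here.

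The sensor gene Nlrp3 (ENSMUSG00000032691, chr11:59541568-59566956, plus strand) was the member with every NMO library below every control library. It was at 180 and 196 CPM in NMO CD11c+ and 199, 164 and 174 CPM in NMO CD11c-, against 206, 229 and 217 CPM in control. The log2 fold changes were -0.21 for CD11c+ (SE 0.117, 95% interval -0.47 to 0.05, adjusted p = 0.264) and -0.28 for CD11c- (SE 0.104, 95% interval -0.51 to -0.05, adjusted p = 0.177), so neither was called. Without CD11c+ replicate 1 the CD11c+ value was -0.15 (adjusted p = 0.517). Between the NMO subsets the value was 0.07 (SE 0.117, adjusted p = 0.782).

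Gsdmd (ENSMUSG00000022575, chr15:75862327-75867408, plus strand), which encodes the pore-forming end of the pathway, had 277 and 234 CPM in NMO CD11c+, 233 to 266 CPM in NMO CD11c- and 194 to 233 CPM in control. Both CD11c+ libraries were above control, replicate 2 by a narrow margin, and CD11c- overlapped control. With GC and length offsets CD11c+, at 247 and 233 CPM, also overlapped control, at 210 to 241 CPM. Its log2 fold changes were 0.25 against control for CD11c+ (SE 0.126, adjusted p = 0.217), 0.20 for CD11c- (SE 0.113, adjusted p = 0.388) and 0.05 between the subsets (SE 0.127, adjusted p = 0.848). CD11c+ against control gave 0.13 without CD11c+ replicate 1, 0.36 without replicate 2 (adjusted p = 0.0501) and 0.0867 with the offsets. Between the subsets the sign turned, to -0.0706 without replicate 1 and -0.0200 with the offsets.

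The CD11c+ libraries differed from each other beyond counting error for 7 of the 10 members, as for 47.8% of all tested genes. Levels were higher in replicate 2 for 9 of the 10 members, against 50.6% of all tested genes. The ratio of replicate 2 to replicate 1 was 4.03 for Il1a (95% counting interval 3.61 to 4.52), 2.64 for Il1rn (1.5 to 4.87) and 2.30 for Il1b (1.62 to 3.32). It was 1.52 for Casp4, 1.47 for Il18 and 1.40 for Casp1, whose intervals also lay above 1. Intervals held 1 for Il18bp, Nlrp3 and Pycard, and Gsdmd ran the other way with a ratio of 0.847 (0.784 to 0.914). Among all tested genes 1.62% had a larger ratio in either direction than Il1a, 4.82% than Il1rn and 6.63% than Il1b. For the rest the gap was common: 26.4% had a larger one than Casp4, 30.1% than Il18, 36.1% than Casp1 and 65.7% than Gsdmd. These intervals cover counting error only.

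Base composition moved with part of this gap. Casp4, Casp1 and Il1a are the members poorest in GC (38.1%, 41.1% and 41.3% of the bases of the longest transcript), and Gsdmd is the richest at 54.4%. With GC and length offsets the ratio was 0.936 for Casp4, 0.919 for Casp1 and 0.941 for Gsdmd, while Il1a kept 2.67, Il1rn 1.93 and Il1b 1.92.

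**Figure D4:**
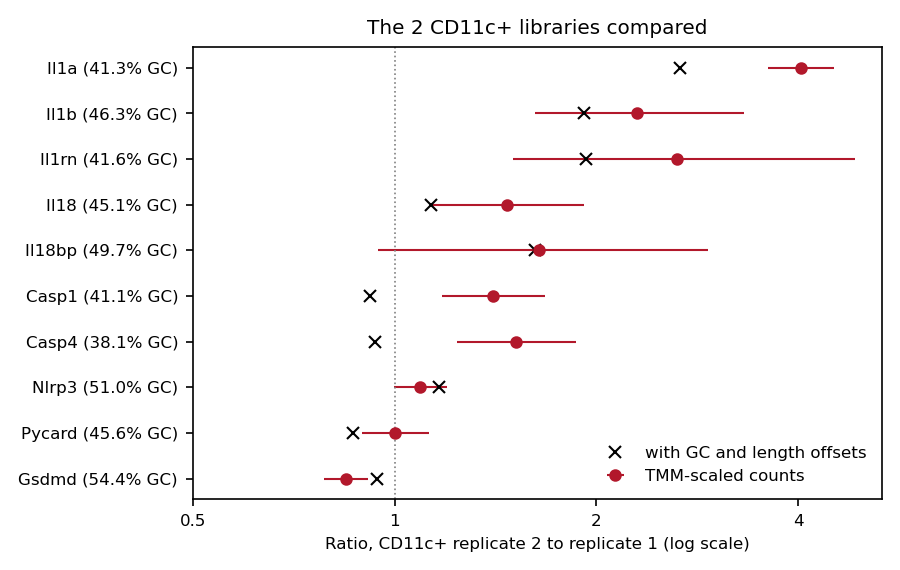
Ratio of CD11c+ replicate 2 to replicate 1 for each member on a log axis, from scaled counts (points, 95% counting interval) and with GC and length offsets (crosses). Il1a has the largest ratio by both measures, at 4.03 and 2.67, and the caspases move to 0.936 and 0.919 with offsets.

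Leaving out either CD11c+ library changed which members were called. Without replicate 1, CD11c+ exceeded control in 4 members (Il1a, Il1b, Il1rn and Casp4), against 5.24% of tested genes, and was lower in 0 (1.83%). Between the NMO subsets 0 were higher (0.0322%) and 0 lower (0.00%). Without replicate 2, CD11c+ exceeded control in 2 members, Il1b and Pycard (16.2% of tested genes), and was lower in 2, Il1a and Il18 (16.5%). Against CD11c- it was then higher in 0 (11.5%) and lower in 2, Il1a and Casp4 (12.7%). Il1b was the member called above control under either choice. In these fits the single CD11c+ library was assumed to vary like the libraries of the other groups.

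Genes known to respond to the isolation of cells moved beside Il1a. The 14 immediate-early and isolation stress genes listed, such as Fos, Jun and Atf3, summed to 9536 and 38931 CPM in NMO CD11c+, 7736, 15027 and 19975 CPM in NMO CD11c-, and 48488, 23631 and 26780 CPM in control. Within each NMO group the library order of this sum was that of Il1a, and control replicate 1 was the highest control on both. Across groups the order parted, since CD11c+ replicate 2 had more Il1a than control replicate 1 with a smaller sum. Of the list, 0 genes were called between the NMO subsets. Called lower than in control were 1 of 14 in CD11c+, Hspa1b, and 2 of 14 in CD11c-, Hspa1a and Hspa1b. Hspa1b was at 10.2 and 91.4 CPM in CD11c+, 10.9, 87.0 and 35.9 CPM in CD11c-, and 481, 378 and 561 CPM in control. Gm14023, whose exons overlap those of Il1a on the other strand, was at 3.06 and 51.4 CPM in CD11c+, 6.73, 7.68 and 20.1 CPM in CD11c- and 24.5, 15.1 and 16.0 CPM in control, and without a known strand setting the reads of such a pair cannot be told apart. The part of these genes in the Il1a values was not tested.

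Markers of neutrophils, which can make Il1b and Il1rn, differed between the groups in another way. The 13 listed summed to 17.6 and 22.2 CPM in NMO CD11c+, with Ly6g at 0 counts in both, and to 3292, 11629 and 2231 CPM in NMO CD11c-, against 925, 1173 and 1914 CPM in control. Of these 13, 11 were called lower in CD11c+ than in control, 11 lower in CD11c+ than in CD11c-, and 2 higher in CD11c- than in control. Il1b and Il1rn thus stood above control in CD11c+ libraries where the neutrophil sum was below that of every control. In every CD11c- library the neutrophil sum lay above all controls, as did the levels of Il1b, Il1rn, Casp4 and Pycard. Among the CD11c- libraries replicate 2 had the highest neutrophil sum and the highest Il1b and Pycard, though not the highest Il1rn or Casp4. The 10 monocyte markers summed to 81.9 and 98.7 CPM in CD11c+, 362, 1159 and 271 CPM in CD11c- and 123, 139 and 222 CPM in control, with 4 of 9 tested called higher in CD11c- than in control. In CD11c+ against control 1 was called higher and 2 lower. The higher one was Fn1, at 25.1 and 20.3 CPM in CD11c+ against 3.64 to 5.01 CPM in control (log2 fold change 2.43, SE 0.271, adjusted p = 0.000668). The part of these cells in the CD11c+ and CD11c- values was not tested.

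**Figure D5:**
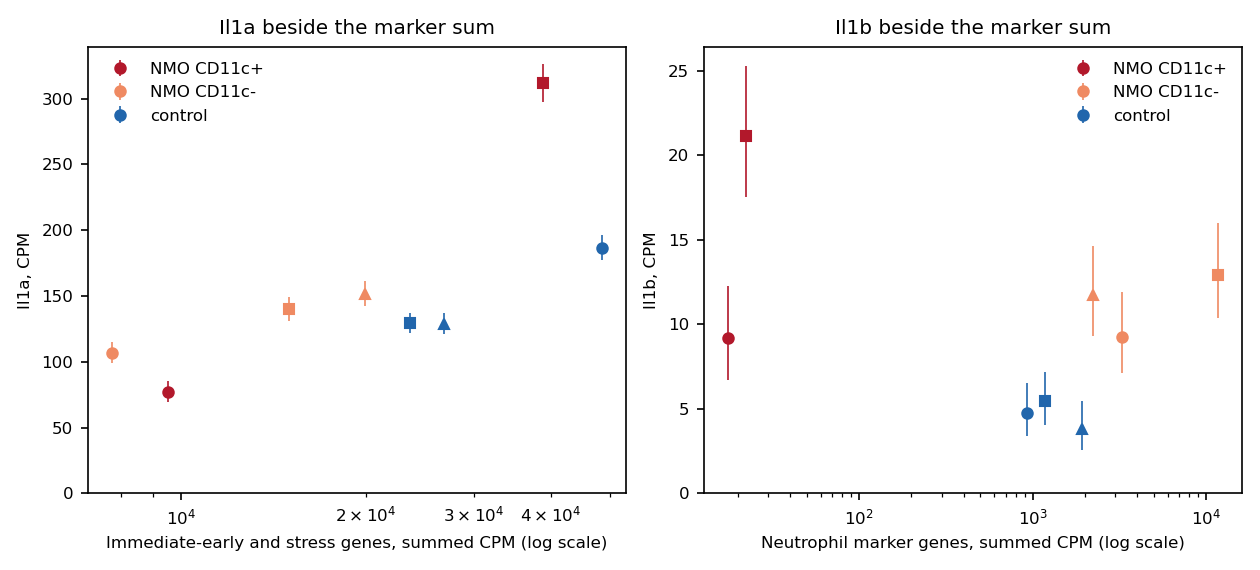
Left, Il1a CPM against the summed CPM of 14 immediate-early and stress genes (log axis); right, Il1b CPM against the summed CPM of 13 neutrophil markers (log axis); points are libraries with 95% counting intervals, and circle, square and triangle are replicates 1, 2 and 3. Il1b is above control in the CD11c+ libraries at neutrophil sums of 17.6 and 22.2 CPM.

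Of the other lists, border-associated macrophage markers summed to 63.1 and 131 CPM in NMO CD11c+, 112 to 143 CPM in NMO CD11c- and 48.1 to 118 CPM in control. Ms4a7, 1 of 7 tested, was called higher in CD11c- than in control (log2 fold change 1.62, SE 0.366, adjusted p = 0.0397). It missed the threshold in CD11c+ against control (1.37, SE 0.417, adjusted p = 0.0637), and the part of such cells was not tested. Dendritic cell markers summed to 39.8 and 52.9 CPM, 34.7 to 45.6 CPM and 23.7 to 30.9 CPM in the same groups. Every NMO library had a higher dendritic sum than every control. Flt3, 1 of 3 dendritic markers tested, was called higher than in control in CD11c+ (log2 fold change 2.23, SE 0.337, adjusted p = 0.00309) and in CD11c- (1.77, SE 0.312, adjusted p = 0.0135), as Il1b was, and its part was not tested. T and NK cell markers stayed at or under 2.41 CPM in every library.

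Ranked by CPM per kilobase of exon, Gsdmd, Il1a and Nlrp3 led in every group and Il18bp and Il1rn came last. In NMO CD11c+ the means were 107.5 for Gsdmd, 98.5 for Il1a, 46.3 for Nlrp3, 34.1 for Casp1, 30.04 for Pycard, 23.5 for Il18, 10.7 for Casp4, 7.95 for Il1b, 1.87 for Il18bp and 1.14 for Il1rn. In that group the library ranges of Gsdmd and Il1a, Il1a and Nlrp3, Casp1 and Pycard, Casp4 and Il1b, and Il18bp and Il1rn overlapped. The order was the same in NMO CD11c-, with 0 overlapping neighbours. There the level per kilobase ran from 103.5 for Gsdmd and 67.3 for Il1a to 5.94 for Il1b and 1.05 for Il1rn. In control, Il18 (26.2 CPM per kilobase) came before Pycard (24.5), which overlapped it, and Il1a (75.1) overlapped Gsdmd (90.2). Il1b was 2.45 and Il1rn 0.308 CPM per kilobase in control.

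Other genes of the pathway were read from lists, of which the receptors and other ligands had 16 names, 11 matched and 8 tested. Sigirr, a receptor that dampens interleukin-1 family signalling, was called higher than in control in both NMO subsets. It was at 4.09 and 3.52 CPM in CD11c+, 2.39, 3.61 and 3.09 CPM in CD11c- and 0.856, 1.39 and 1.05 CPM in control, with log2 fold changes of 1.76 for CD11c+ (SE 0.362, adjusted p = 0.0155) and 1.44 for CD11c- (SE 0.329, adjusted p = 0.0419) against control. All NMO libraries were above control, from counts of 40, 61 and 28 summed over the groups in the same order. Il18rap, the signalling partner of the interleukin-18 receptor, had 10.8 and 11.6 CPM in CD11c+, 17.4, 36.7 and 15.1 CPM in CD11c- and 2.32, 4.50 and 6.80 CPM in control. It was called higher in CD11c- than in control (log2 fold change 2.35, SE 0.402, adjusted p = 0.0117) and missed the threshold in CD11c+ against control (1.31, SE 0.469, adjusted p = 0.0998). Its highest library, CD11c- replicate 2, also had the highest neutrophil sum. Both CD11c+ libraries lay above every control for Il18rap, at neutrophil sums of 17.6 and 22.2 CPM. The part of neutrophils in the Il18rap values was not tested. Between CD11c+ and CD11c- 0 of the 8 were called. In this comparison 4 of the 8 fell and 0 rose at an unadjusted p under 0.05 (edgeR quasi-likelihood test). Of all tested genes 7.54% fell and 7.9% rose at that p. Against control 3 of the 8 rose and 1 fell in CD11c+ at that p, while in CD11c- 4 rose and 0 fell.

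Of the receptor signalling list, from Myd88 to Peli1, 12 of 12 genes were tested and 0 were called in any of the 3 comparisons by the edgeR quasi-likelihood test, and 0 had an unadjusted p under 0.05. Among other inflammasome and pyroptosis genes, such as Aim2, Nlrc4, P2rx7 and Gsdme, 18 of 22 were tested and 0 were called in any comparison. At an unadjusted p under 0.05 the list had 1 higher and 2 lower in CD11c+ against control, 3 higher and 2 lower in CD11c- against control, and 0 higher and 2 lower in CD11c+ against CD11c-. Over all tested genes 15.6% were higher and 13.2% lower at that p in CD11c+ against control, and 11.7% and 7.02% in CD11c- against control.

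The genes whose pattern was most like that of a called member were sought among 9792 genes, by the root mean square difference in log2 CPM centred on each gene's mean over the 8 libraries. For Il1b they were Hist1h2bg (0.175), Usp18 (0.231) and Phf11b (0.234), and for Il1rn Fgl2 (0.351), Gm4951 (0.367) and Isg15 (0.388). Casp4 was nearest to Lacc1 (0.0652), Pkib (0.0661) and Atp5mpl (0.0872), and Pycard to Pan2 (0.0449), Trim21 (0.0460) and Mms19 (0.0482). A small difference is a likeness over 8 libraries that share their preparation and is given as a description.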

How the data were processed

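Each library's gene counts were deposited by the authors as whole numbers, 1 value per gene, and used as raw counts, and 0 columns of per-sample values were left unused. Per the submitters' processing notes, STAR 2.3.11, HTSeq 0.5.4, edgeR 3.12.0 and GRCm38 were used. Strand setting and annotation release: not given in the sources used here. Symbols, exon lengths and GC content came from GENCODE M21, which named 40340 of 41388 identifiers.

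Counts were tested in R 4.3.3 with edgeR 4.0.16: filterByExpr at a minimum count of 10, TMM scaling, and 1 quasi-likelihood fit (glmQLFit, glmQLFTest) of all 8 libraries with 5 residual degrees of freedom. Every adjusted p is Benjamini-Hochberg over the genes tested in its own fit, which were 12002 in the main fit. SE is that of the log2 fold change. CPM use the TMM-scaled library size, and ratios a pseudocount of 0.5. Alternatives were DESeq2 1.42.0, the edgeR exact test, other scalings and filters, only the groups compared, GC and length offsets (mgcv 1.9.3), and each library left out. No libraries of a group agreed within sampling noise. The pipeline was tested on simulated data. The members and gene lists were chosen with earlier results of these data known. The text names every member, called genes of the pathway lists and, for called members, the 3 genes of nearest pattern.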

Additional observations from a re-analysis of the deposited data

How the results depend on the processing

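No paired analysis was possible because the replicate numbers were given in order of accession and no label ties libraries of different groups together. Of 510 fold changes of members under the alternatives, 447 kept their direction and side of the threshold, 26 lost a call, 17 gained one and 20 changed sign.

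Members called higher in CD11c+ against control numbered 2, but 4 with GC and length offsets, 1 with only these groups in the fit, and 0 to 4 with a library left out; those called lower numbered 0, and 0 to 2 with a library left out. In CD11c- against control 3 were called higher, and 0 to 4 with a library left out. In CD11c+ against CD11c- 0 were called lower, and 0 to 2 with a library left out. Fits without a CD11c- or control library have fewer libraries in the group, and the causes of the other changes were not tested.

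Of the sign changes most were between CD11c+ and CD11c-, where 0 members had been called. Gsdmd gave -0.00533 with library size only. GC and length offsets gave -0.0200 for Gsdmd, 0.22 for Casp1, 0.0798 for Pycard, 0.20 for Casp4 and 0.12 for Il18. With a library left out, the same comparison ranged from -0.0706 to 0.17 for Gsdmd, -0.32 to 0.17 for Casp1, -0.47 to 0.13 for Casp4, -0.39 to 0.17 for Il18, -0.65 to 0.0614 for Il18bp, -0.74 to 0.65 for Il1rn, -0.30 to 0.90 for Il1b and -0.79 to 1.23 for Il1a. CD11c+ against control ranged from -0.46 to 0.10 for Il18, -0.11 to 0.37 for Casp1, -0.94 to 1.07 for Il1a and -0.0747 to 0.64 for Il18bp, and CD11c- against control from -0.26 to 0.0414 for Il1a. Il1b, Il1rn, Casp4, Pycard, Nlrp3 and Gsdmd kept their direction against control in both NMO groups under every alternative run.

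The ratios with GC and length offsets, added after seeing the data, kept the sign of all 6 differences. Depth limits Il1rn most, with 11 to 52 counts a library, and Il18bp, with 21 to 53.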
